A study of Jaculus jaculus with 29 samples.

Results

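Vasoactive intestinal peptide (Vip) was described beside 7 marker transcripts of the suprachiasmatic nucleus, Lhx1, Nms, Six6, Rorb, Zfhx3, Rgs16 and Synm, in punches of the supraoptic nucleus of the lesser Egyptian jerboa, a desert rodent. These 8 genes were taken by symbol from the 29170 genes of the count table, 6 of them from the names in the authors' deposited table and 2, Rgs16 and Synm, from the overlap of their gene spans with RefSeq genes of the same assembly. All 8 passed the filter on low counts, which kept 17558 genes. The genes were selected on measured values, namely the Vip level across the treatments and its relation to the markers within them, so both are given as a description with no test. The tests below are on the markers and on the other genes of the pathway.

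Dehydrated animals (10 libraries) were under water restriction for 11 days, Rehydrated animals (9 libraries) were restricted for 7 days and then had water for 3 days, and Control animals (10 libraries) drank freely. All animals lived singly at a constant temperature under a 12-hour light cycle with dry food pellets, and the sources used here give no time of day for sampling. Each library was polyadenylated RNA of bilateral punches cut with a core from frozen coronal sections, so it holds every cell type within the core. Of the Sex labels, 6 were female and 4 male in Dehydrated, 4 and 5 in Rehydrated, and 5 and 5 in Control.

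VIP is a neuropeptide of neurons in the ventral core of the suprachiasmatic nucleus, the paired clock nucleus that lies above the optic chiasm. In mice and rats these neurons receive input from the retina, and VIP acts on neighbouring clock neurons through the receptor VPAC2, encoded by Vipr2, which couples to adenylyl cyclase and cyclic AMP. The supraoptic nucleus lies lateral to the chiasm and holds the magnocellular neurons that release vasopressin and oxytocin. Lhx1 and Six6 are homeodomain transcription factors needed for the suprachiasmatic nucleus in mice, and Nms encodes neuromedin S, a peptide of suprachiasmatic neurons. Rorb encodes a nuclear receptor, Zfhx3 a large zinc finger homeobox protein, Rgs16 a regulator of G-protein signalling and Synm the intermediate filament protein synemin. Rorb, Zfhx3 and Synm are also expressed in many other cells of the brain.

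Total counts ranged from 10797577 to 18856620 per library. Control M01 had the lowest total and stood apart, at 137 on the first principal component (21.7% of the variance), where no other library was farther than 13.7 from zero. It was the lowest Control library for 6 of the 7 markers, the exception being Rgs16, and for Vip it lay inside the Control range. The Sex label of 3 libraries (Dehydrated M02, Control F03 and Control M05) differs from the letter in the library's name, and each result by sex says which of them was used.

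Vip (ENSJJAG00000018682, chromosome 9, 13631370 to 13639086, minus strand, in the mJacJac1 assembly) was measured as CPM, the reads of a gene relative to the total of its library, with totals scaled by TMM, which corrects for differences in composition between libraries. In Dehydrated libraries the lowest Vip level was 13.7 CPM, the median 26 CPM and the highest 67.0 CPM. In Rehydrated libraries the lowest, median and highest values were 0.658, 4.50 and 22.7 CPM, and in Control libraries they were 0.401, 2.66 and 30.3 CPM. All 10 Dehydrated libraries lay above the Control median, and 5 of them lay above every Control library. The groups overlapped, because Control F05 (30.3 CPM) and Control M05 (15.1 CPM) lay above the lowest Dehydrated library, and so did 3 Rehydrated libraries, F04, F05 and F06, at 15.1, 22.7 and 20.6 CPM. In punches of whole tissue, a different number of Vip neurons and a different amount of Vip RNA per neuron cannot be told apart.

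**Figure D1:**
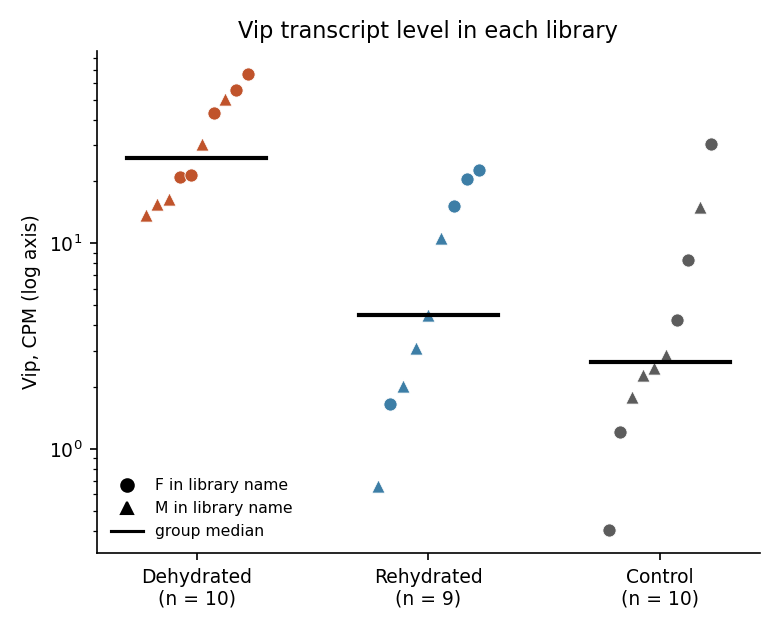
Vip in each library, in CPM on a log axis, for Dehydrated (n = 10), Rehydrated (n = 9) and Control (n = 10); circles and triangles give the letter in the library's name and the line is the group median (26 CPM in Dehydrated, 4.50 in Rehydrated and 2.66 in Control). The Dehydrated libraries occupy the top of the range, from 13.7 to 67.0 CPM, and 2 Control and 3 Rehydrated libraries reach into it.

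As a description of the contrast by which Vip was chosen, the fitted log2 difference was 2.56 between Dehydrated and Control (SE 0.54, 95% interval 1.45 to 3.68), which is 5.91-fold. It was 2.00 between Dehydrated and Rehydrated (SE 0.54, interval 0.89 to 3.12) and 0.56 between Rehydrated and Control (SE 0.55, interval -0.56 to 1.69). The authors' deposited table puts the log2 fold change at 2.61 (SE 0.56) for Dehydrated against Control and at 0.58 (SE 0.57) for Rehydrated against Control. Leaving out each library in turn gave Dehydrated against Control differences between 2.31 and 3.04, the highest without Control F05. The Rehydrated against Control differences lay between 0.34 and 1.06, again highest without Control F05. With the letter in the library's name as the grouping, the median Vip level in Dehydrated libraries was 43.0 CPM for F and 16.4 CPM for M. In Rehydrated libraries the medians were 17.9 CPM for F and 3.08 CPM for M, and in Control libraries 4.26 CPM for F and 2.47 CPM for M. By the Sex label the Dehydrated medians were closer, 32.3 CPM for females and 23.4 CPM for males, and the Rehydrated medians were the same as by letter. By the Sex label the Control medians were 8.27 CPM for females (1.21 to 30.3) and 2.28 CPM for males (0.401 to 2.85), and all 5 libraries labelled male in Control lay under 3 CPM. A sex difference in Vip was not tested.

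Levels were compared between genes as TPM, which also divides by the exonic length of each gene. In Dehydrated libraries Vip had the highest median of the 8 genes, 84.6 TPM, ahead of Synm at 50.2 TPM, though the Vip range (43.9 to 221 TPM) overlapped the Synm range (38.6 to 62.9 TPM). Below them followed Rgs16 (19 TPM), Zfhx3 (18.5 TPM) and Rorb (15.8 TPM), whose ranges overlapped, then Nms (8.33 TPM) and Lhx1 (7.38 TPM), and last Six6 (1.29 TPM). In Rehydrated libraries Vip had a median of 14.3 TPM, below the medians of Synm, Rorb, Rgs16 and Zfhx3. In Control libraries it had 8.80 TPM, below those of Synm (48.4 TPM), Rgs16 (18.3 TPM), Zfhx3 (16.5 TPM), Rorb (13.2 TPM) and Nms (9.63 TPM), and its range of 1.20 to 105 TPM covered the medians of all 7 markers. Libraries of these groups thus differed in where Vip stood among the markers.

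The markers were tested between treatments to ask whether their transcripts moved as Vip did. At an adjusted p under 0.05 by Benjamini-Hochberg in the quasi-likelihood test of edgeR, 0 of the 7 markers passed in Dehydrated against Control, where 0.125% of the 17558 tested genes did. In Rehydrated against Control 0 of 7 passed, against 0% of all tested genes, and in Dehydrated against Rehydrated 0 of 7 passed, against 0.0228%. At an unadjusted p under 0.05 the count was 0 of 7 in Dehydrated against Control (6.37% of all tested genes), 1 of 7 in Rehydrated against Control (7.48%) and 1 of 7 in Dehydrated against Rehydrated (3.88%). DESeq2 also called 0 of the 7 in each comparison. The median log2 difference of the markers was -0.03 in Dehydrated against Control (3 higher, 4 lower), 0.03 in Rehydrated against Control (5 higher, 2 lower) and -0.08 in Dehydrated against Rehydrated (3 higher, 4 lower). The median over all tested genes was within 0.01 of zero in each comparison. The CPM ranges of the compared groups overlapped for all 8 genes, and the share of tested genes without overlap was 0% in Dehydrated against Control and in Rehydrated against Control and 0.0057% in Dehydrated against Rehydrated.

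The peptide Nms and the transcription factors Lhx1 and Six6 are the markers with the lowest levels. Lhx1 (ENSJJAG00000024155, chromosome 9, 94654502 to 94660507, minus strand) had a minimum, median and maximum of 4.42, 8.61 and 11.1 CPM in Dehydrated libraries. In Rehydrated libraries it had 4.38, 9.35 and 11.3 CPM, and in Control libraries 6.66, 10.1 and 17.8 CPM. The groups overlapped, and 1 of the 10 Dehydrated libraries lay above the Control median. The log2 difference of Lhx1 in Dehydrated against Control was -0.36 with an SE of 0.18 and a 95% interval of -0.73 to 0.01 (edgeR adjusted p = 0.774). In the authors' deposited table Lhx1 has -0.42 on the log2 scale (SE 0.18, adjusted p = 0.632).

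Nms (ENSJJAG00000004537, chromosome 4, 114317392 to 114329493, minus strand) had a minimum, median and maximum of 0.582, 1.82 and 5.46 CPM in Dehydrated libraries. The values were 0.490, 1.17 and 2.63 CPM in Rehydrated libraries and 0.571, 2.11 and 6.11 CPM in Control libraries. Dehydrated and Control libraries spanned nearly the same range, and the Rehydrated maximum was the lowest of the 3 maxima. The log2 difference of Nms in Dehydrated against Control was -0.08 with an interval of -0.86 to 0.71 (edgeR adjusted p = 0.973), and it turned positive when single libraries were left out (up to 0.17). In Rehydrated against Control it was -0.63 with an interval of -1.47 to 0.22 (edgeR adjusted p = 0.742). Counts behind Nms ran from 6 to 83 reads per library, which limits its precision.

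Six6 (ENSJJAG00000000807, chromosome 7, 115203240 to 115204880, plus strand) was the lowest of the markers, with 1 to 308 reads per library. It had a minimum, median and maximum of 0.204, 0.458 and 4.06 CPM in Dehydrated libraries, 0.140, 0.917 and 20.1 CPM in Rehydrated libraries, and 0.0952, 1.25 and 3.98 CPM in Control libraries. A single library, Rehydrated F05, lay far above the others at 20.1 CPM, and the next Rehydrated library had 2.67 CPM. The log2 difference of Six6 in Dehydrated against Rehydrated was -1.66 with an interval of -3.09 to -0.23 and an unadjusted p of 0.0247 (edgeR adjusted p = 1.00), and without Rehydrated F05 it was -0.16. In Rehydrated against Control the difference was 1.14 (edgeR adjusted p = 0.715), and without that library it was -0.48. In Dehydrated against Control, where neither group holds that library, it was -0.52 with an interval of -1.94 to 0.91 (edgeR adjusted p = 0.872).

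Rehydrated F05 differed from the other 8 Rehydrated libraries in further genes of the lists read here. Pomc, the pro-opiomelanocortin precursor of arcuate and pituitary cells, was at 331 CPM in that library and between 4.68 and 16.5 CPM in the others. All 7 tested oligodendrocyte genes were below every other Rehydrated library there. The part of these differences in the Six6 level was not tested. Vip in that library, 22.7 CPM, was the highest of the Rehydrated group, and Lhx1, 4.38 CPM, was the lowest.

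Rorb (ENSJJAG00000013056, chromosome 1, 64209966 to 64397415, plus strand) had a minimum, median and maximum of 23, 28.5 and 41.5 CPM in Dehydrated libraries. The values were 23.9, 36.2 and 43.2 CPM in Rehydrated libraries and 17.9, 23.7 and 37 CPM in Control libraries. All 9 Rehydrated and 9 of the 10 Dehydrated libraries lay above the Control median, but the groups overlapped. The log2 difference of Rorb was 0.22 in Dehydrated against Control, with an interval of -0.06 to 0.50 (edgeR adjusted p = 0.798). In Rehydrated against Control it was 0.39 with an interval of 0.10 to 0.68 and an unadjusted p of 0.00985, which did not pass after adjustment (edgeR adjusted p = 0.571). The Rorb median was thus highest in Rehydrated libraries, where the Vip median was 4.50 CPM, not in Dehydrated libraries, where Vip was highest.

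Zfhx3 (ENSJJAG00000004370, chromosome 1, 275856427 to 276023655, minus strand) had a minimum, median and maximum of 66.9, 102 and 127 CPM in Dehydrated libraries, 63.4, 83.7 and 133 CPM in Rehydrated libraries, and 40.5, 93.3 and 122 CPM in Control libraries. Synm (ENSJJAG00000035193, chromosome 3, 136263439 to 136290490, minus strand) had 90.7, 116 and 142 CPM in Dehydrated libraries, 89.1, 107 and 121 CPM in Rehydrated libraries, and 41.6, 110 and 125 CPM in Control libraries. The lowest Control value of both genes was that of Control M01, and the groups otherwise overlapped over most of their ranges. In Dehydrated against Control the log2 difference was 0.11 for Zfhx3 (interval -0.19 to 0.41, edgeR adjusted p = 0.872). For Synm it was 0.14 (interval -0.10 to 0.39, edgeR adjusted p = 0.819). Without Control M01 these differences were 0.04 and 0.06.

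Rgs16 (ENSJJAG00000031145, chromosome 1, 295298510 to 295303405, plus strand) had a minimum, median and maximum of 9.31, 15.9 and 32.1 CPM in Dehydrated libraries. The values were 10.3, 14.4 and 45.2 CPM in Rehydrated libraries and 6.66, 15 and 52.3 CPM in Control libraries. The medians lay close together, and each group had 1 or 2 libraries well above the rest, with Dehydrated M06 at 32.1 CPM, Rehydrated M06 and F05 at 45.2 and 37.5 CPM, and Control F05 at 52.3 CPM. The log2 difference in Dehydrated against Control was -0.03 with an interval of -0.66 to 0.59 (edgeR adjusted p = 0.989), and it was 0.27 without Control F05 and -0.27 without Dehydrated M06.

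**Figure D2:**
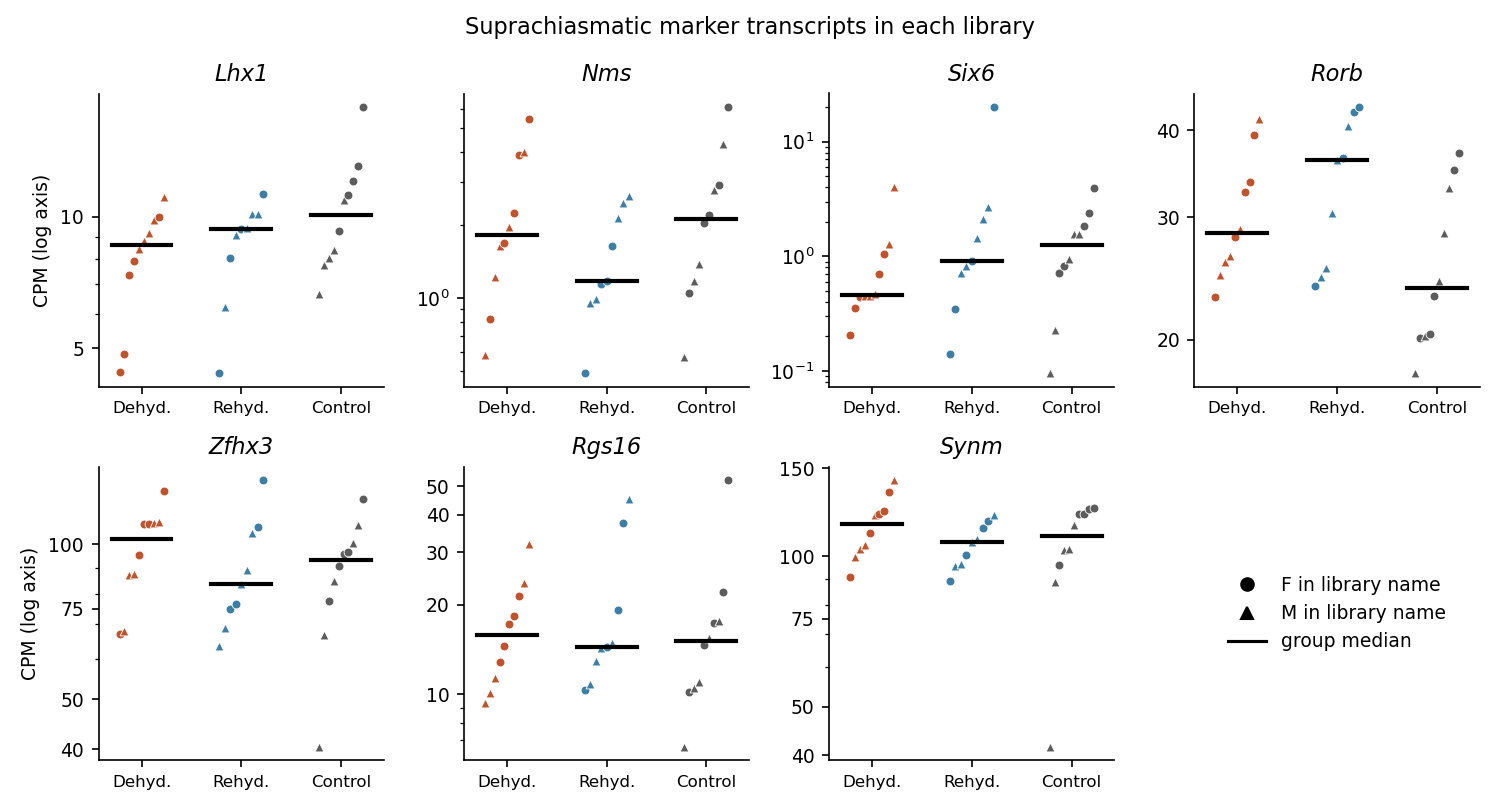
The 7 markers in each library, in CPM on log axes, for Dehydrated, Rehydrated and Control from left to right; circles and triangles give the letter in the library's name and lines are group medians. The groups overlap in every panel, with single libraries apart in Six6 (Rehydrated F05 at 20.1 CPM), Rgs16 (Control F05 at 52.3 CPM) and Synm (Control M01 at 41.6 CPM).

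Summed over the 7 markers, the level ran from 214 to 320 CPM in Dehydrated libraries, from 212 to 301 CPM in Rehydrated libraries and from 118 to 361 CPM in Control libraries. The lowest Control sum was that of Control M01. Synm and Zfhx3, which are also expressed in many other cells of the brain, were the largest parts of this sum. Their medians were 116 and 102 CPM in Dehydrated libraries, where the sum had a median of 275 CPM. The sum of Lhx1, Nms and Six6, the markers that are least widespread in the brain, ran from 7.57 to 17.2 CPM in Dehydrated, from 9.18 to 26.1 CPM in Rehydrated and from 7.33 to 27.9 CPM in Control libraries. None of the 7 markers was at 0 in any library. The median of this smaller sum was 10.7 CPM in Dehydrated, 11.9 CPM in Rehydrated and 13.1 CPM in Control libraries, and the ranges overlapped. Lhx1 was its largest part by median, with 8.61 CPM in Dehydrated libraries. The Rehydrated maximum was that of Rehydrated F05, where Six6 alone was at 20.1 CPM. Differences in these sums were not tested.

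**Figure D3:**
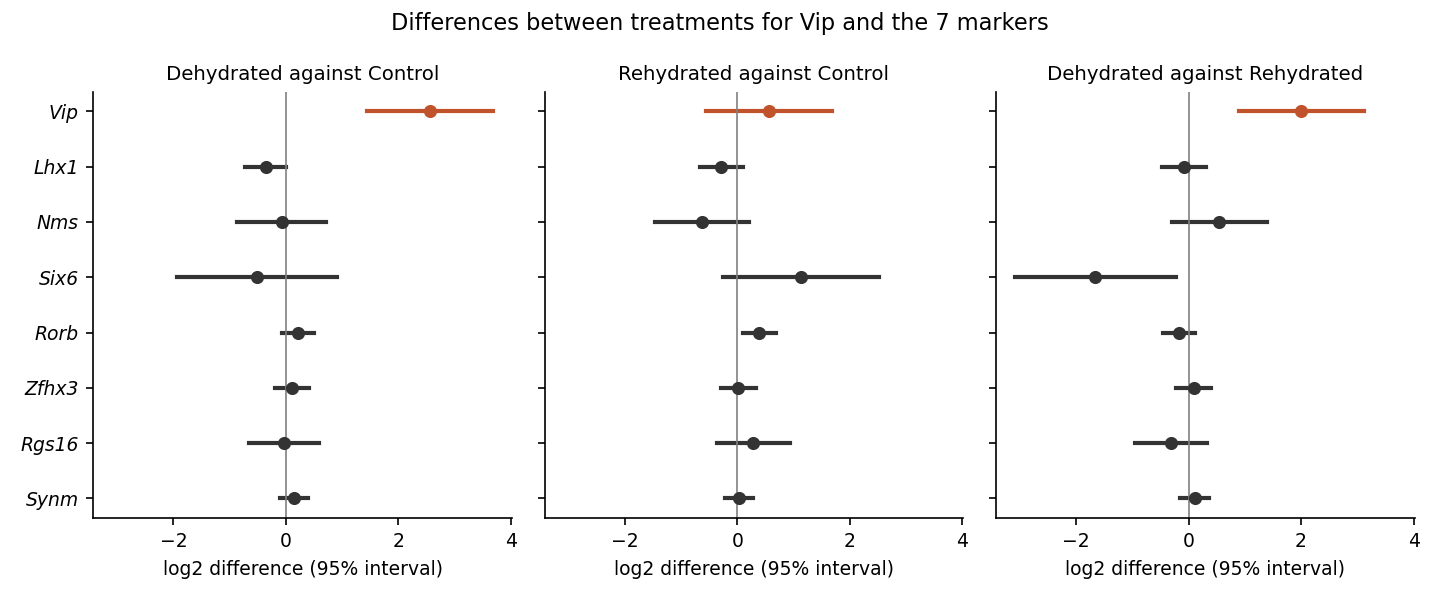
Log2 differences between treatments from the edgeR model with 95% intervals for Vip, given as a description, and the 7 markers. In Dehydrated against Control the Vip interval, 1.45 to 3.68, lies above those of all 7 markers, of which the highest upper bound is 0.91 for Six6. Vip was chosen by its level across the treatments, so setting the intervals side by side is no test.

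Vip was also set against Rorb and Rgs16 in each library as a ratio of CPM values. These are the 2 markers with the highest Pearson's r with Vip within treatments (0.69 and 0.58), and ratios to other markers were not computed. This choice bears on the spread of the ratios within groups. The median of Vip per Rorb was 0.980 in Dehydrated libraries (0.553 to 2.06), 0.124 in Rehydrated libraries (0.0267 to 0.565) and 0.125 in Control libraries (0.0199 to 0.819). By this ratio 1 Rehydrated and 1 Control library reached the lowest Dehydrated value, where 3 and 2 did so by the Vip level alone. The median of Vip per Rgs16 was 1.65 in Dehydrated libraries (0.580 to 3.13), 0.314 in Rehydrated libraries (0.0609 to 1.08) and 0.232 in Control libraries (0.0394 to 0.856). By this ratio 4 Rehydrated and 2 Control libraries reached the lowest Dehydrated value. Both ratios contain the Vip level by which the gene was chosen and were not tested.

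Sex-by-treatment differences of the markers were tested in a model with a separate mean for each group and Sex label. In edgeR's quasi-likelihood test 0 of the 7 markers passed in either Dehydrated against Control or Rehydrated against Control, where 0% of all tested genes passed. At an unadjusted p under 0.05 the count was also 0 of 7 in both, with the smallest p, 0.0501, for Nms in Rehydrated against Control. The log2 difference in that response, female minus male, was -1.61 for Nms, the response in females being the lower. Each group held 4 to 6 libraries per Sex label.

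Within treatments the level of Vip followed some of the markers from library to library. Each log2 CPM value (prior count 2) was taken as its deviation from the mean of its treatment, so that differences between treatments do not enter. Over the 29 libraries Pearson's r with Vip was 0.69 for Rorb and 0.58 for Rgs16. It was 0.34 for Nms, 0.34 for Zfhx3, 0.33 for Six6, 0.22 for Synm and -0.03 for Lhx1. Spearman's rho was 0.67 for Rorb, 0.58 for Rgs16 and -0.04 for Lhx1. The marker genes therefore did not stand in 1 relation to Vip, and Lhx1, a transcription factor of the nucleus itself, had almost none. All these values share their libraries, their scaling and the choice of Vip, and they are given with no test.

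By treatment, r of Rorb with Vip was 0.65 in Dehydrated (n = 10), 0.64 in Rehydrated (n = 9) and 0.78 in Control libraries (n = 10). For Rgs16 it was 0.51 in Dehydrated, 0.40 in Rehydrated and 0.77 in Control libraries. Without the 2 libraries farthest from the Vip median of each group, Rgs16 had 0.44 in Dehydrated, 0.00 in Rehydrated and 0.54 in Control libraries, and Rorb had 0.86, 0.40 and 0.54 in these groups. These 2 genes were positively related to Vip in each treatment, and in Rehydrated libraries the relation of Rgs16 rested on those 2 libraries. Nms had 0.56 in Dehydrated, -0.15 in Rehydrated and 0.61 in Control libraries, and Zfhx3 had 0.24 in Dehydrated, 0.61 in Rehydrated and 0.19 in Control libraries. Six6 had 0.34 in Dehydrated, 0.34 in Rehydrated and 0.33 in Control libraries. Without the 2 libraries farthest from the Vip median of each group Six6 had 0.34, -0.13 and -0.17. Its positive values in Rehydrated and Control libraries thus rested on those libraries. Synm had 0.62 in Dehydrated, 0.00 in Rehydrated and 0.24 in Control libraries, and Lhx1 had -0.29 in Dehydrated, -0.21 in Rehydrated and 0.26 in Control libraries. Without the same libraries Lhx1 had 0.03, 0.47 and -0.11, and Nms had 0.76, -0.46 and 0.29. Zfhx3 then had 0.16, 0.80 and 0.09, and Synm had 0.47, 0.12 and 0.15. Nms, Zfhx3, Synm and Lhx1 thus changed in size or in sign from treatment to treatment, and differences between the treatments' correlations were not tested.

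**Figure D4:**
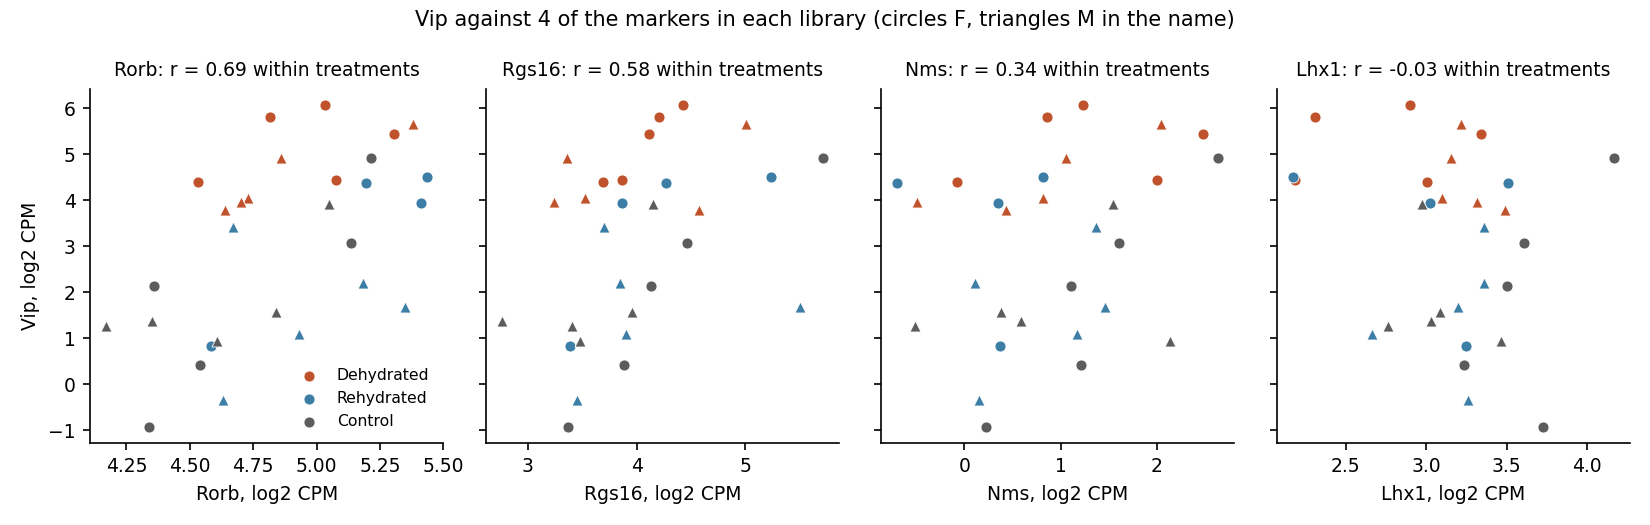
Vip against Rorb, Rgs16, Nms and Lhx1 in each library, all in log2 CPM, coloured by treatment, with r over the 29 libraries after subtraction of the treatment means (0.69, 0.58, 0.34 and -0.03). The Dehydrated libraries lie in the upper part of each panel, with single Rehydrated and Control libraries among them, and the points slope upward most for Rorb.

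Against the mean of the 7 markers, each scaled to the same SD, Vip had an r of 0.52 over the 29 libraries, given as a description because Vip was chosen by this relation. The value ran from 0.40 without Control F05 to 0.59 without Control M01 when each library was left out. Among the libraries with F in their name (n = 14) it was 0.86, and among those with M (n = 15) it was 0.43. The split was widest for Rgs16, with 0.90 for F and 0.33 for M, while Rorb had 0.78 and 0.54, and Six6 had 0.36 and 0.56.

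Genes with an average log2 CPM of 1 or more whose pattern was among the most like that of Vip were Rorb (0.69), Fam171a1 (0.65), C9H17orf75 (0.61), Poc1b (0.60), Rgs16 (0.58), Dlx1 (0.58), Col4a6 (0.57), Golga3 (0.56) and Lmln2 (0.56), by Pearson's r of deviations from the treatment means over 29 libraries. The likeness did not extend to the treatment difference. In Dehydrated against Control the log2 differences of these 9 genes lay between -0.03 and 0.24, and 0 of the 9 passed (edgeR, smallest adjusted p = 0.644).

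The TMM scaling factor itself varied with Vip, with an r of 0.53 of its log2 over the 29 libraries, and with Rorb (0.51) and Rgs16 (0.46), but less with Zfhx3 (0.11) and Lhx1 (-0.12). With libraries scaled by total counts in place of TMM, r with Vip was 0.71 for Rorb, 0.59 for Rgs16 and 0.01 for Lhx1. Total counts had an r of -0.19 with Vip. The mean of the 7 tested oligodendrocyte genes, which stand for the optic chiasm and tract beside the nucleus, had an r of -0.38 with Vip. Their part in the relation of Vip and the markers was not tested.

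The markers were also related to each other, to different degrees by treatment. Of the 21 pairs of markers, 16 had a positive r in Dehydrated (median 0.26), 9 in Rehydrated (median -0.04) and 21 in Control libraries (median 0.67). Without Control M01 all 21 pairs were still positive in Control, with a median of 0.53. The median r between markers was thus highest in Control and lowest in Rehydrated libraries, and this difference was not tested. The part of Rehydrated F05, where Six6 was highest and Lhx1 and Synm were lowest, was not tested. Nor was that of Control F05, the highest Control library for Rgs16, Rorb, Lhx1, Nms, Six6 and Zfhx3.

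**Figure D5:**
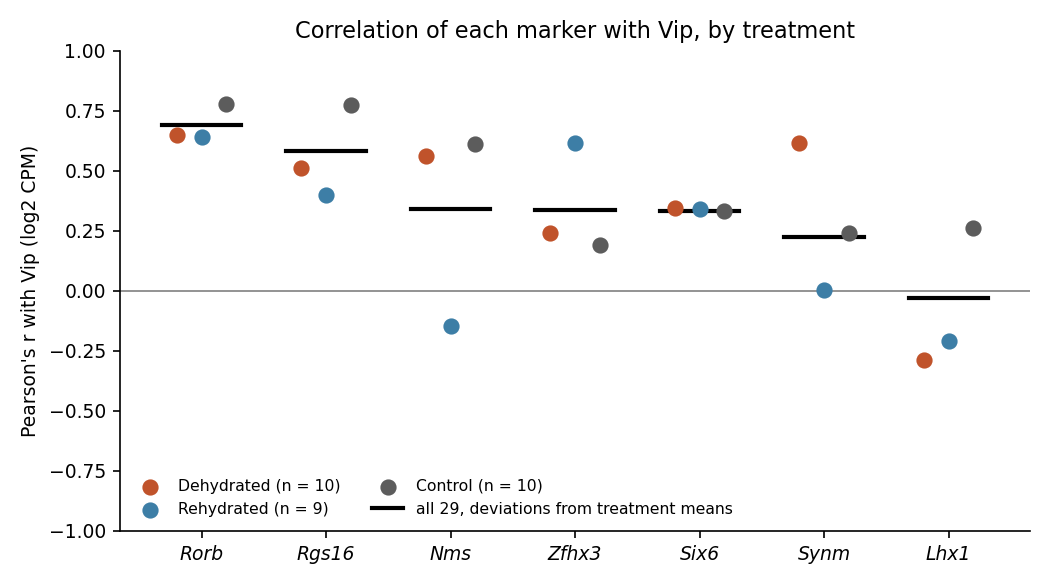
Pearson's r of each marker with Vip on log2 CPM in Dehydrated (n = 10), Rehydrated (n = 9) and Control (n = 10) libraries, with the black line giving r over all 29 libraries after subtraction of the treatment means. Rorb and Rgs16 are positive in each treatment (0.40 to 0.78), while Nms, Synm and Lhx1 differ in size or sign between treatments.

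A further list of 14 genes of the suprachiasmatic nucleus had 9 tested members, and 0 of the 9 passed in each of the 3 comparisons in edgeR's test and in DESeq2, with 1 of 9 at an unadjusted p under 0.05 in each. In edgeR 6.37% of all tested genes had such a p in Dehydrated against Control, 7.48% in Rehydrated against Control and 3.88% in Dehydrated against Rehydrated. Of the 9 tested members 5 were higher and 4 lower in Dehydrated against Control, with a median log2 difference of 0.08. The calcium-binding proteins Calb2 and Calb1 averaged 303 and 134 CPM in Dehydrated libraries and 358 and 138 CPM in Control libraries. The orphan receptor Gpr176 averaged 34.3 CPM in Dehydrated and 34.5 CPM in Control libraries, and the secreted C1q-like protein C1ql3 averaged 25.9 CPM in Dehydrated and 24.1 CPM in Control libraries. The mean of this list had an r of 0.53 with Vip within treatments. C1ql3 had 0.52, Prokr2, the prokineticin receptor, 0.40 and Calb1 0.38. Cck, the cholecystokinin precursor, had 0.18, Gpr176 0.16, Rora, a nuclear receptor, 0.08 and Calb2 -0.02. Means of other lists read here were also positive with Vip. Other anterior hypothalamic neurons had 0.35, cortical Vip interneurons 0.31, choroid plexus and ependyma 0.29 and clock genes 0.28. Magnocellular genes had 0.20, receptors of the VIP family 0.20 and the cyclic AMP arm 0.13. Astrocyte genes had -0.05, the VIP peptide family -0.12 and oligodendrocyte genes -0.38. Differences between the lists were not tested.

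Of the receptors of the VIP family and their accessory proteins, 9 were tested and 1 passed in Dehydrated against Control, where 0.125% of all tested genes did. Glp1r, the receptor of glucagon-like peptide, rose in Dehydrated against Control by 1.17 on the log2 scale (SE 0.24, edgeR adjusted p = 0.0370), with means of 12.9 ± 5.73 CPM in Dehydrated and 5.69 ± 1.70 CPM in Control libraries (SD, n = 10 each). Glp1r binds another peptide of the secretin superfamily and is no receptor of VIP. The call was lost in 15 of 29 fits that left out 1 library, with adjusted p-values from edgeR between 0.00984 and 0.106 and log2 differences between 1.07 and 1.25. It was also lost with only the compared groups (edgeR adjusted p = 0.0898) and with the replicate block (0.334), and kept in DESeq2 (DESeq2 adjusted p = 0.000894). The other 8 receptors and accessory proteins did not pass in Dehydrated against Control in edgeR or DESeq2, with 0 of them at an unadjusted p under 0.05 in edgeR, and 0 of the 9 passed in the other comparisons in both tools (1 of 9 at an unadjusted p under 0.05 in edgeR in each). The receptors that bind VIP itself are named here outside the naming rule, for their role. Vipr2 averaged 6.04 ± 2.73 CPM in Dehydrated, 6.30 ± 1.78 CPM in Rehydrated and 5.15 ± 2.16 CPM in Control libraries, a log2 difference of 0.24 in Dehydrated against Control (SE 0.23, edgeR adjusted p = 0.838). Vipr1 averaged 1.64 ± 0.441 CPM in Dehydrated, 2.23 ± 1.40 CPM in Rehydrated and 1.84 ± 0.935 CPM in Control libraries, with a log2 difference of -0.16 (SE 0.30, edgeR adjusted p = 0.903). Adcyap1r1, the receptor of the related peptide PACAP, averaged 285 ± 8.95 CPM in Dehydrated and 251 ± 55.3 CPM in Control libraries, and the PACAP precursor Adcyap1 averaged 108 CPM in Dehydrated and 121 CPM in Control libraries.

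Within treatments the r of Vipr2 was 0.70 with the mean of the 7 markers and 0.35 with Vip, and the difference between them was not tested. Over the listed genes only Syt10 (0.72), a synaptotagmin, and Nr1d2 (0.72), a clock repressor, had a higher r with the marker mean. Without Control M01 these were 0.49 for Syt10 and 0.48 for Nr1d2, and Vipr2 had 0.65. In each treatment the library with the highest Six6 was also the highest in Vipr2. Vipr2 was at 11.8 CPM in Dehydrated M06, where the other Dehydrated libraries had 3.67 to 9.99 CPM, and at 9.35 CPM in Rehydrated F05, where the others had 4.44 to 9.15 CPM. In Control F05, the Control library with the highest Vip, Rgs16, Rorb, Lhx1, Nms, Six6 and Zfhx3, it was at 10.1 CPM, where the others had 2.57 to 5.97 CPM.

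The cyclic AMP arm, with adenylyl cyclases, protein kinase A subunits and CREB family factors, had 18 tested genes, of which 0 passed in each comparison in edgeR's test and in DESeq2. In edgeR 0 of 18 had an unadjusted p under 0.05 in Dehydrated against Control, 1 in Rehydrated against Control and 0 in Dehydrated against Rehydrated. The shares of all tested genes were 6.37%, 7.48% and 3.88%. Of the 18 genes 13 were higher and 5 lower in Dehydrated against Control, with a median log2 difference of 0.08. The kinase subunits Prkar1a and Prkar1b averaged 592 and 267 CPM in Dehydrated libraries and 571 and 278 CPM in Control libraries, and the cyclase Adcy5 averaged 189 CPM in Dehydrated and 182 CPM in Control libraries. The circadian clock list had 17 tested genes, and 0 passed in edgeR's test or in DESeq2 in any of the 3 comparisons, with 11 higher and 6 lower in Dehydrated against Control and a median log2 difference of 0.05. At an unadjusted p under 0.05 in edgeR the clock counts were 0 in Dehydrated against Control, 2 in Rehydrated against Control and 1 in Dehydrated against Rehydrated, beside the same shares of all tested genes. Per1 averaged 40.6 CPM in Dehydrated, 39.9 CPM in Rehydrated and 49.2 CPM in Control libraries, and Dbp, an output of the clock, averaged 46.6 CPM in Dehydrated, 49.8 CPM in Rehydrated and 51.9 CPM in Control libraries. Per1 and Dbp are named outside the naming rule, as genes with a daily rhythm in rodents.

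Other cell types in and around the punches were read from marker lists. For the counts at an unadjusted p under 0.05 in Dehydrated against Control, the share of all tested genes was 6.37% in edgeR. The 8 tested markers of the Vip interneurons of the cortex had 0 calls in edgeR and DESeq2 (0 at an unadjusted p under 0.05 in Dehydrated against Control), with 3 higher and 5 lower in Dehydrated against Control and a median log2 difference of -0.08. The summed level of the magnocellular list, which marks the supraoptic nucleus itself, ran from 2231 to 7006 CPM in Dehydrated, from 497 to 5314 CPM in Rehydrated and from 758 to 3696 CPM in Control libraries. Avp, the vasopressin precursor, was the largest part of this sum, with means of 3293 CPM in Dehydrated and 934 CPM in Control libraries. The sum therefore cannot tell the Avp level from the amount of nucleus in a punch. Of the 7 tested magnocellular genes 3 rose in Dehydrated against Control (0.125% of all tested genes passed). They were Avp, Pdyn, the prodynorphin precursor, and Caprin2, an RNA-binding protein that binds vasopressin mRNA in rats. Oxt, Otp, Sim1 and Pou3f2, named outside the naming rule, did not pass, with log2 differences of -0.07, -0.04, 0.15 and -0.08. Avp rose by 1.81 on the log2 scale (edgeR adjusted p = 0.0388), and by 1.71 to 2.07 with 1 library left out. The Avp call was lost in 19 of 29 fits that left out 1 library (adjusted p in edgeR up to 0.106), and those of Pdyn and Caprin2 in 0 of 29. It was kept in DESeq2 for all 3 genes (adjusted p = 4.57e-05 for Avp), and for Avp with only the compared groups (edgeR adjusted p = 0.0219). The Avp call was also lost with no filter on low counts (edgeR adjusted p = 0.0691), with the name letter as covariate (0.0507) and with the replicate block (0.0853), and the Caprin2 call with only the compared groups (0.0804). For Pdyn r with Vip was 0.76 in Dehydrated, 0.80 in Rehydrated and -0.44 in Control libraries. For Caprin2 r was 0.75 in Dehydrated, 0.20 in Rehydrated and 0.41 in Control libraries, and for Avp 0.46, 0.17 and -0.10. Among the magnocellular genes that did not pass, r in Dehydrated libraries was 0.70 for Otp, 0.57 for Sim1, 0.25 for Oxt and -0.13 for Pou3f2. Over the 29 libraries, on deviations from treatment means, r was 0.26 for Pdyn, 0.36 for Caprin2 and 0.11 for Avp. These correlations were not tested. The oligodendrocyte list was lower in Dehydrated than in Control for 7 of 7 tested genes, with a median log2 difference of -0.33 and 0 calls in edgeR (0 at an unadjusted p under 0.05) and in DESeq2. Over all tested genes 49.2% were higher in that comparison. Of the oligodendrocyte genes 1 was higher and 6 were lower in Rehydrated against Control, with a median log2 difference of -0.45 and 0 calls (0% of all tested genes in edgeR). At an unadjusted p under 0.05 the count was 4 of 7 in edgeR, where 7.48% of all tested genes had such a p. In DESeq2 it was 5 of 7, and the share over all genes was not computed. The oligodendrocyte sum ran from 2348 to 6270 CPM in Dehydrated, from 1136 to 8122 CPM in Rehydrated and from 2556 to 6512 CPM in Control libraries. Neurons of other anterior hypothalamic regions had 13 tested genes with 0 calls in edgeR and DESeq2 in Dehydrated against Control (1 at an unadjusted p under 0.05 in edgeR), and the 5 astrocyte genes had 0 calls (0 at an unadjusted p under 0.05). Of 3 tested choroid plexus and ependyma genes Kl, which encodes klotho, rose in Dehydrated against Control (edgeR adjusted p = 0.0476), where 0.125% of all tested genes passed. Foxj1 and Ccdc153, named outside the naming rule, did not pass, with log2 differences of 0.01 and 0.79. Ttr and Tmem212 of the same list failed the filter on low counts, with 129 and 5 reads over all 29 libraries. The Kl call was lost in 25 of 29 fits that left out 1 library, with only the compared groups (edgeR adjusted p = 0.195) and with the replicate block (0.0838). It was kept in DESeq2 (DESeq2 adjusted p = 0.00155), and the log2 difference lay between 1.42 and 1.86 with 1 library left out. The part of these cell types in the Vip difference was not tested.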

How the data were processed

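Polyadenylated RNA of supraoptic nucleus punches was sequenced in 29 libraries. The deposited table holds counts of read pairs per gene; per the file headers, the authors made it with featureCounts 1.6.2 (paired-end) and the Ensembl gene models of mJacJac1. No strand option is given there, so reads of antisense or overlapping neighbours cannot be told apart. The submitters' processing notes name FastQC, featureCounts and DESeq2; for the aligner, the sources used here give nothing. The authors' deposited tables also hold log2 fold changes and standard errors with p-values for 17583 genes; their 56 columns of values per library were not used here.

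The deposited tables name 9699 of 29170 genes; RefSeq gave names to another 5594 whose spans overlapped by at least 0.5 both ways, and 13877 had none. The 2 sources gave the same name to 96.57% of the 8787 genes that both name. Counts were filtered with filterByExpr, scaled by TMM and fitted with a robust quasi-likelihood model of group and Sex label in edgeR 4.0.16 (R 4.3.3; 25 residual degrees of freedom), with Benjamini-Hochberg adjustment over 17558 genes and a threshold of 0.05. CPM used TMM-scaled totals, log2 CPM a prior count of 2, and TPM the exonic length in the count table. Standard errors were derived from the F statistic. Correlations were computed on deviations from treatment means. The pipeline was tested on simulated data. Python 3.11.15, pandas 2.3.3 and matplotlib 3.10.9 prepared tables and figures.

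The 8 genes, the gene lists and the tests were chosen with earlier results of these data known. Named genes were the 8 genes, the 10 genes with a symbol and an average log2 CPM of 1 or more that were most correlated with Vip (1 of which is not reported here), and from each list the genes that passed and otherwise at most the 4 with the highest level. Alternatives were DESeq2 1.42.0, its size factors, no filter on low counts, no sex term, the name letter as covariate, only the compared groups, a replicate block, and each library left out. In each of 126 replicate pairs the counts differed by more than sampling noise (lowest chi-square per degree of freedom 8.90), so no library was taken as a duplicate. The labels number the samples and say that animals were housed singly, but do not tie each library to 1 animal, so p-values measure the spread between these samples.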

Additional observations from a re-analysis of the deposited data

Results flagged for a closer look

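Of 24 groups examined (8 genes in 3 treatments), 5 held a library whose gap to its nearest neighbour was larger than Dixon's 95% critical value allows. For normally distributed values, chance gives such a library in about 1 in 20 groups. CPM values can be skewed, as for Vip in Control (median 2.66 CPM, highest 30.3 CPM), and the groups share libraries. The 5 flagged groups can therefore not be set against that rate. In Control F05 Vip was at 30.3 CPM, where the next Control library had 15.1 CPM, and Rgs16 was at 52.3 CPM, where the next had 22 CPM. Six6 was at 4.06 CPM in Dehydrated M06, where the next had 1.28 CPM, and at 20.1 CPM in Rehydrated F05, where the next had 2.67 CPM. Synm was at 41.6 CPM in Control M01, the library that stood apart over all genes, where the next Control library had 88.9 CPM. Control F05 was thus high in both Vip and Rgs16, and Rehydrated F05 was high in Six6 together with Pomc (331 CPM).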

How the results depend on the processing

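The 21 marker differences (7 markers in 3 comparisons) were recomputed under each alternative, which gave 756 values. Of these, 735 kept their direction and their side of the threshold, and 21 changed sign with 1 library left out. In these alternatives 0 markers passed the threshold. With each library left out in turn, the log2 difference in Dehydrated against Control ran from -0.293 to 0.175 for Nms and from -0.271 to 0.270 for Rgs16. In Rehydrated against Control it ran from -0.481 to 1.42 for Six6, from -0.0227 to 0.552 for Rgs16, from -0.0625 to 0.0736 for Zfhx3 and from -0.0620 to 0.0752 for Synm. In Dehydrated against Rehydrated it ran from -0.604 to 0.00267 for Rgs16. The lowest Six6 value is that without Rehydrated F05 and the highest that without Control F05. The lowest Synm and Zfhx3 values are those without Control M01. The lowest Rgs16 value is that without Dehydrated M06 in Dehydrated against Control and in Dehydrated against Rehydrated, and without Rehydrated M06 in Rehydrated against Control; the highest is that without Control F05 in both comparisons with Control and without Rehydrated M06 in Dehydrated against Rehydrated. The extremes of Nms are those without Dehydrated F03 and Control F05. Why these libraries differ was not tested. Vip with the marker mean had an r of 0.863 among libraries with F in their name, above the 0.520 of all libraries, and the cause was not tested. With a replicate block on the name's letter and number, the Vip difference was 2.69 in Dehydrated against Control, 0.20 in Rehydrated against Control and 2.49 in Dehydrated against Rehydrated. Same-numbered libraries did not deviate together (median r -0.03 in Dehydrated against Control, 0.02 in Rehydrated against Control and 0.08 in Dehydrated against Rehydrated), so the numbers were not taken as pairs. Over all genes, calls in Dehydrated against Control were 12 with the block, 22 without it, 40 in DESeq2 and 11 with the compared groups alone. In Rehydrated against Control DESeq2 called 20 and the other fits named here 0, and in Dehydrated against Rehydrated the counts were 5 with the block, 4 without it, 13 in DESeq2 and 1 with the compared groups alone. Nms and Six6, with as few as 6 and 1 reads in a library, are limited by depth.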
